A study of Mus musculus with 24 samples.

Results

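The 10 regulators *Lhx2*, *Ldb1*, *Ebf1*, *Ebf2*, *Ebf3*, *Ebf4*, *Emx2*, *Kdm1a*, *Lbr* and *Bptf* were found by their symbols among 45706 genes measured by bulk RNAseq of the olfactory epithelium (OE) of 24 mice. *WT* mice were compared with *iRhom2-/-* mice, which carry the *Rhbdf2* tm1b(KOMP)Wtsi allele, a knockout that carries a LacZ reporter under the control of the gene itself. The strain was a mix of 129Sv and C57BL/6. All mice were untreated, and RNA came from the whole OE of both nares, so each value sums over all cell types. In such bulk samples, fewer cells of a type and less RNA per cell cannot be told apart. At 8 weeks and at 10 weeks there were 3 *WT* and 3 *iRhom2-/-* mice each. The 6 *WT* and 6 *iRhom2-/-* mice of 5 and 30 weeks are carried by columns whose names give the genotype only, so they form 1 set, called here 5 or 30 weeks, in which the ages cannot be separated and add to the spread. Its mice are named by the letters a to f, which stand for nothing but the column. The 5- and 30-week mice are labelled male, while 1 *WT* mouse at 8 weeks and 1 mouse of each genotype at 10 weeks are female. Each of the 3 sets carries its own core reference number, called submission here, so age and submission cannot be told apart. The labels do not say what this number stands for.

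Each mature olfactory sensory neuron (OSN) transcribes a single allele of a single odorant receptor (*OR*) gene, and the proteins described here are known for their part in that choice. *Lhx2*, a LIM-homeodomain factor, and the *Ebf* factors bind the enhancers that form the *OR* hub, and *Ldb1* is the adaptor that joins Lhx2-bound enhancers across chromosomes. *Emx2* is a homeodomain factor needed for normal *OR* expression. *Kdm1a* (LSD1) is a histone demethylase whose activity is needed to start *OR* transcription and is switched off once a receptor has been chosen. *Lbr* is an inner nuclear membrane protein whose loss from maturing OSNs goes with the gathering of silent *OR* genes in the nucleus, and *Bptf* is the largest subunit of the NURF nucleosome remodeler.

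Library totals ranged from 25333822 to 48660394 counts (median 34233812). The lowest count of any regulator in any library was 725, for *Lbr*, far above a floor of 3 counts. Counting error was not compared with the spread between mice. *Rhbdf2*, the gene of iRhom2, was at 19.4 to 25.1 CPM (counts over the library size after scaling by the trimmed mean of M-values, TMM) in the 12 *WT* mice and at 7.21 to 13.4 CPM in the 12 *iRhom2-/-* mice, with no overlap. The library of *iRhom2-/-* mouse 2 at 10 weeks stood apart. *Bpifb9b*, a secreted protein of nasal glands, took 13.6% of its counts, and its TMM factor of 0.779 moves every CPM value of that mouse.

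In GRCm38 with the GENCODE M21 annotation *Ebf3* lies on chromosome 7 from 137193673 to 137314445, *Ebf1* on chromosome 11 from 44617317 to 45008091, *Ebf2* on chromosome 14 from 67233292 to 67430918, and *Ebf4* on chromosome 2 from 130295169 to 130370481. *Lhx2* lies on chromosome 2 from 38339281 to 38369733, *Ldb1* on chromosome 19 from 46031570 to 46045214, and *Emx2* on chromosome 19 from 59458372 to 59465357. *Kdm1a* lies on chromosome 4 from 136550540 to 136602723, *Lbr* on chromosome 1 from 181815335 to 181843046, and *Bptf* on chromosome 11 from 107033081 to 107132127. *Bptf* is 9.47 Mb from *Rhbdf2*, the gene altered in these mice, and *Ebf1* is 71.6 Mb from it. Values per gene sum the reads of its exons.

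The *Ebf* proteins bind a palindrome whose core is CCCNNGGG, which reads alike on both strands. This core was searched in the RefSeq promoter windows (GRCm38.p6, 250 bases before to 50 after each start), which held 13 windows of 9 of the regulators. It was in 13.7% of all 32851 windows and in 3 of the 13, those of *Ebf3*, *Ldb1* and *Lhx2*. Of these, the 2 with the core before the start are shown for *Ebf3*, the gene that passed the test, and *Ldb1*, with the core in capitals, both on the minus strand. The core starts 21 bases before the start in *Ebf3* and 47 bases before 1 of the 3 starts listed for *Ldb1*.
Ebf3 promoter, chr7:137314448-137314477: acagcgccgctCCCGGGGGcttcgagtttt
Ldb1 promoter, chr19:46039650-46039679: ccctccgcccgCCCTGGGGcctccttcgga
The homeodomain core TAATTA, also alike on both strands, was in 5.29% of windows and, among the regulators, in that of *Emx2*, while TAATGA on either strand was in 9.78% of windows and in 0 of the 13. A match describes these letters only and shows no binding.

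*Ebf3* was the regulator that passed the test over all mice. Over the 24 mice, *Ebf3* was higher in *iRhom2-/-* OE by 0.26 on the log2 scale (SE 0.051, 1.20-fold), with an adjusted p of 0.00954 by edgeR's quasi-likelihood test with the Benjamini-Hochberg adjustment over 20131 genes. Of the other 9 regulators 5 had an unadjusted p under 0.05, as did 2521 of all 20131 genes. These 9 did not pass the threshold of 0.1 in that fit. Of all genes tested, 2.13% passed it in either direction and 1.29% as higher in *iRhom2-/-*, beside 1 of the 10 regulators. The log2 fold changes of 9 of the 10 were above 0 and their median was 0.16, while 10173 of all 20131 genes were above 0 with a median of 0.0017.

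**Figure D1:**
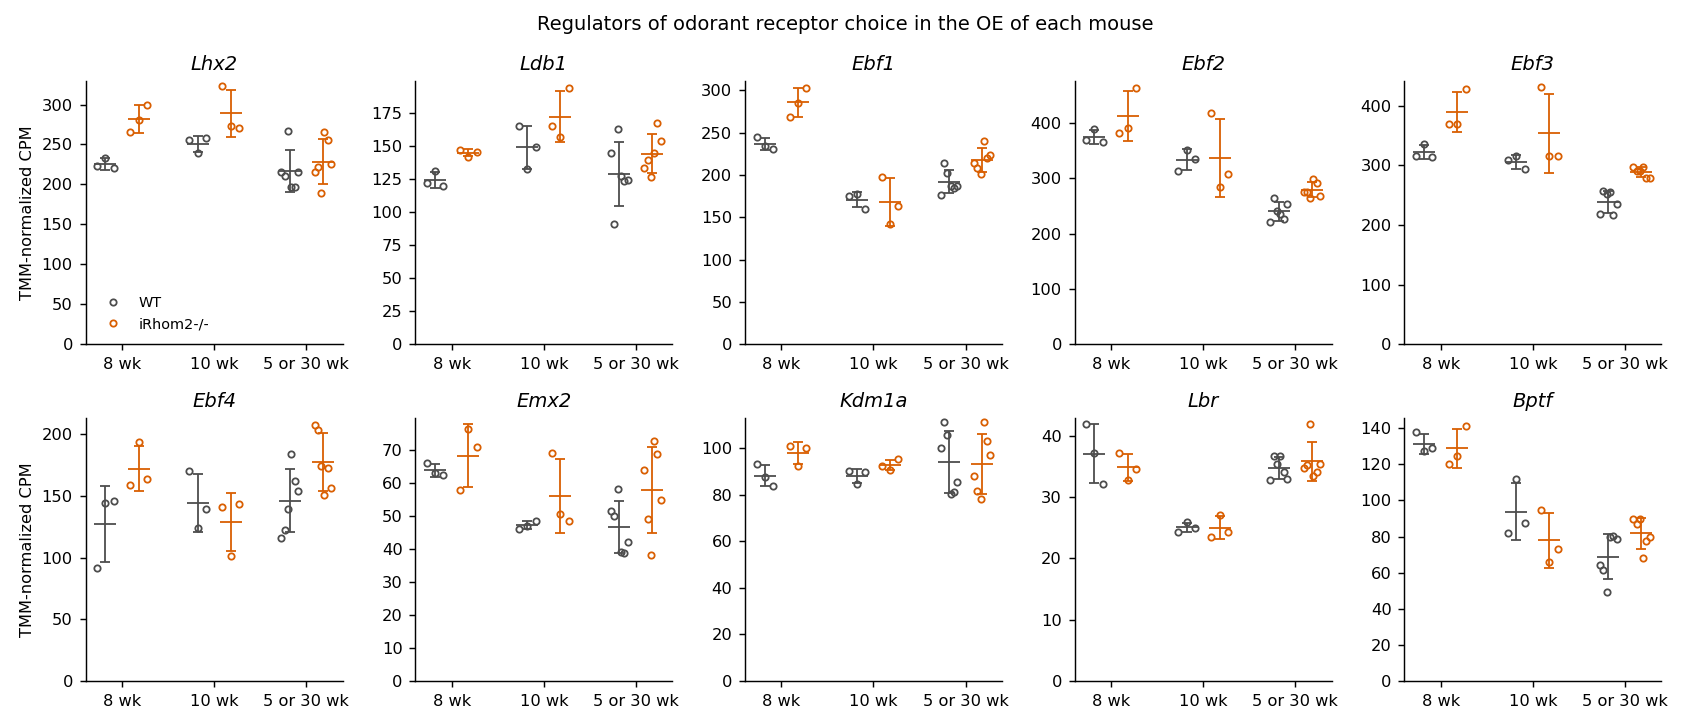
TMM-normalized CPM of the 10 regulators (vertical axes, each from 0) in every mouse, for *WT* (grey) and *iRhom2-/-* (orange) at 8 weeks, 10 weeks and 5 or 30 weeks, with the mean and SD of each group. For *Ebf3* every *iRhom2-/-* mouse lies above every *WT* mouse of its own set, by less than 1 CPM at 10 weeks.

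*Ebf3* encodes a helix-loop-helix factor of the Olf/EBF family, first known from neurons and B cells. At 8 weeks *Ebf3* was at 315, 316 and 336 CPM in the *WT* mice and at 369, 370 and 428 CPM in the *iRhom2-/-* mice, so the groups did not overlap. At 10 weeks it was at 293, 309 and 315 CPM in *WT* mice and at 316, 316 and 431 CPM in *iRhom2-/-* mice, so that 2 of the 3 *iRhom2-/-* mice were nearly level with the highest *WT* mouse. In the mice of 5 or 30 weeks, *WT* values ran from 218 CPM through a median of 244 to 256 CPM, and *iRhom2-/-* values from 280 CPM through a median of 291 to 298 CPM. Counted within sets, 12 of 12 *iRhom2-/-* mice lay above every *WT* mouse.

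*Ebf3* shares 355 exonic bases with *Gm45278*, an antisense gene with no value here. The order at 10 weeks depended on the scaling. With CPM from library totals alone, *iRhom2-/-* mouse 2 was at 246 CPM and the *WT* mice were at 276 to 288 CPM, so the groups overlapped. At 8 weeks and at 5 or 30 weeks they did not overlap under either scaling. Over 24 mice *Ebf3* stayed past the threshold when scaled by library totals (adjusted p = 0.0492).

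Within the sets, the log2 fold change of *Ebf3* was 0.27 (SE 0.083) at 8 weeks, 0.21 (SE 0.15) at 10 weeks and 0.27 (SE 0.063) at 5 or 30 weeks. Its adjusted p was 0.144, 0.824 and 0.0939, so by edgeR it passed in the mice of 5 or 30 weeks alone, and by DESeq2 at 8 weeks too (adjusted p = 0.0329). The call at 5 or 30 weeks was lost in 11 of 12 fits without 1 mouse (adjusted p of up to 0.202), kept without *WT* mouse b, and lost at an adjusted p of 0.05, without a filter on low counts and in the fit of all 6 groups. In that set 1.07% of 18481 genes passed the threshold, and 0.649% as higher. A test of whether the genotype difference changes between the sets gave an adjusted p of 0.947 for *Ebf3*. The call over 24 mice was kept without each mouse in turn, with an adjusted p of at most 0.0278. It was lost in the 12 mice of 8 and 10 weeks alone (log2 fold change 0.24, adjusted p = 0.317) and when the set was not a term of the fit (0.25, adjusted p = 0.381).

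**Figure D2:**
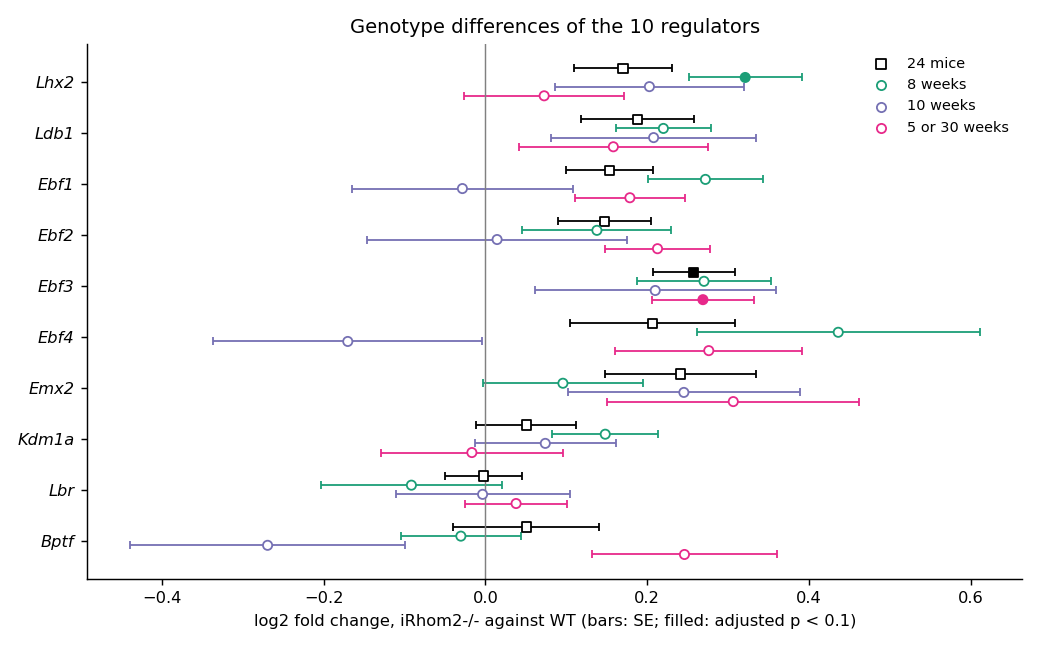
Log2 fold change of each regulator in *iRhom2-/-* against *WT* OE (horizontal axis) with its SE, over 24 mice (squares) and in each set (circles), filled where the adjusted p is under 0.1. *Ebf3* lies between 0.21 and 0.27 in each set, and *Lhx2* is at 0.32 at 8 weeks and at 0.07 at 5 or 30 weeks.

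*Lhx2* rose in *iRhom2-/-* OE at 8 weeks, and its adaptor *Ldb1* lay in the same direction, past the threshold by DESeq2 and not by edgeR. *Lhx2* was at 220, 223 and 234 CPM in the *WT* mice of 8 weeks and at 265, 281 and 299 CPM in the *iRhom2-/-* mice. The groups did not overlap, and the log2 fold change was 0.32 (SE 0.070, adjusted p = 0.0723). At 8 weeks 4.98% of 19335 genes passed the threshold, and 3.24% as higher, beside this 1 regulator. The call of *Lhx2* was lost at an adjusted p of 0.05, with scaling by library totals (adjusted p = 0.127), in the fit of all 6 groups (adjusted p = 0.212) and without any mouse other than *iRhom2-/-* mouse 1 (adjusted p of up to 0.280).

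At 10 weeks *Lhx2* was at 240, 256 and 258 CPM in *WT* mice and at 271, 273 and 323 CPM in *iRhom2-/-* mice, again without overlap. With CPM from library totals these groups overlapped, with the lowest *iRhom2-/-* mouse at 213 CPM and the *WT* mice at 219 to 242 CPM. The log2 fold change at 10 weeks was 0.20 (adjusted p = 0.765). The groups of 5 or 30 weeks overlapped, from 196 to 267 CPM in *WT* and from 189 to 266 CPM in *iRhom2-/-* mice, with a log2 fold change of 0.07 (adjusted p = 0.790). The difference between sets was not past the threshold for *Lhx2* (interaction, adjusted p = 0.581). Over 24 mice its log2 fold change was 0.17 (SE 0.061, adjusted p = 0.211). Without *WT* mouse c of 5 or 30 weeks, the highest *WT* value, it was 0.21 with an adjusted p of 0.0559.

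*Ldb1* did not pass in any set by edgeR, and passed at 8 weeks by DESeq2 (adjusted p = 0.0649). At 8 weeks it was at 120, 122 and 131 CPM in *WT* mice and at 142, 145 and 147 CPM in *iRhom2-/-* mice, with a log2 fold change of 0.22 (SE 0.059, adjusted p = 0.113). At 10 weeks *WT* mice were at 132, 149 and 165 CPM and *iRhom2-/-* mice at 157, 165 and 194 CPM. These groups overlapped. Among those of 5 or 30 weeks, *WT* mouse b was the lowest at 91.2 CPM, and the *WT* range of up to 162 CPM covered 5 of the 6 *iRhom2-/-* mice. Over 24 mice *Ldb1* was at a log2 fold change of 0.19 (SE 0.070, adjusted p = 0.230), which passed the threshold without *WT* mouse c (0.23, adjusted p = 0.0833). *Ldb1* shares 177 exonic bases with *Pprc1*, which is read from the other strand and averaged 17.7 CPM. Whether strand was used in the counting is not given in the sources used here, so reads of such overlaps cannot be told apart.

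The other *Ebf* genes lay above 0 like *Ebf3* at 8 weeks and at 5 or 30 weeks, while at 10 weeks *Ebf1* and *Ebf4* were below 0 and *Ebf2* was near it. *Ebf1*, known for its part in B cell development as well as in OSNs, was at 230, 234 and 244 CPM in the *WT* mice of 8 weeks and at 269, 286 and 303 CPM in the *iRhom2-/-* mice. Its log2 fold change there was 0.27 (SE 0.071, adjusted p = 0.107, and 0.0140 by DESeq2). At 10 weeks it was -0.03, with the *iRhom2-/-* mice at 142, 164 and 198 CPM on both sides of the *WT* mice at 160, 175 and 177 CPM. In the mice of 5 or 30 weeks it was 0.18 (adjusted p = 0.267), with 6 of 6 *iRhom2-/-* mice above the *WT* mean.

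In TMM-scaled CPM the groups of *Ebf2* did not overlap at 5 or 30 weeks. *WT* mice ran from 220 CPM through a median of 238 to 264.1 CPM and *iRhom2-/-* mice from 264.3 CPM through a median of 275 to 299 CPM, so the edges met. With CPM from library totals the groups overlapped, with the lowest *iRhom2-/-* mouse at 278 CPM and the highest *WT* mouse at 282 CPM. The log2 fold change was 0.21 (SE 0.064, adjusted p = 0.180), which passed by DESeq2 (adjusted p = 0.0216). It was 0.14 at 8 weeks and 0.01 at 10 weeks, and neither passed. Over 24 mice *Ebf1* was at 0.15 (SE 0.054, adjusted p = 0.199) and *Ebf2* at 0.15 (SE 0.057, adjusted p = 0.259). Without *iRhom2-/-* mouse 2 of 10 weeks, the library with the *Bpifb9b* counts, both passed, *Ebf1* at 0.18 (adjusted p = 0.0455) and *Ebf2* at 0.18 (adjusted p = 0.0888).

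*Ebf4* changed sign between the sets. At 8 weeks *WT* mouse 1 was at 91.8 CPM against 144 and 146 CPM in the other *WT* mice, and the *iRhom2-/-* mice were at 159, 164 and 193 CPM. The log2 fold change was 0.44 (SE 0.18, adjusted p = 0.228, and 0.0800 by DESeq2). At 10 weeks the sign was the other way at -0.17 (SE 0.17), with 0 of 3 *iRhom2-/-* mice above the *WT* mean, and at 5 or 30 weeks it was 0.28 (SE 0.12, adjusted p = 0.307). The change between sets did not pass (interaction, adjusted p = 0.431). Over 24 mice *Ebf4* was at 0.21 (SE 0.10, adjusted p = 0.413).

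The family was also taken as a whole, per length. The 4 *Ebf* levels, each as CPM per kb of exon, were summed in each mouse. The sum was 153 ± 10.5 (SD, n = 3) in *WT* and 184 ± 11.6 (SD, n = 3) in *iRhom2-/-* mice at 8 weeks, and 143 ± 5.15 (SD, n = 3) against 144 ± 25.02 (SD, n = 3) at 10 weeks. At 5 or 30 weeks it was 125 ± 9.20 (SD, n = 6) against 149 ± 6.70 (SD, n = 6). The lowest *iRhom2-/-* mouse there, at 140 CPM per kb, lay above the highest *WT* mouse, at 138 CPM per kb.

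The mean of the 3 differences was 18.5 CPM per kb, with a 2-sided exact p of 0.00872 from all 369600 permutations of genotype within sets. Adjusted over the 7 measures tested in this way it was 0.061. Within sets the exact p was 0.1 at 8 weeks, which is the smallest that 3 mice against 3 allow, 0.9 at 10 weeks, and 0.00216 at 5 or 30 weeks, which is the smallest that 6 against 6 allow. The share of *Ebf3* in the sum was 23.1% ± 0.912 (SD, n = 3) in *WT* and 26.7% ± 1.96 (SD, n = 3) in *iRhom2-/-* mice at 10 weeks, and differed by less than 1 SD at 8 weeks and at 5 or 30 weeks. Over the sets the *Ebf3* share was higher by 1.30 percentage points (exact permutation p = 0.0857, adjusted p = 0.300). The shares of *Ebf1*, *Ebf2* and *Ebf4* gave exact permutation p-values of 0.415, 0.209 and 0.875.

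**Figure D3:**
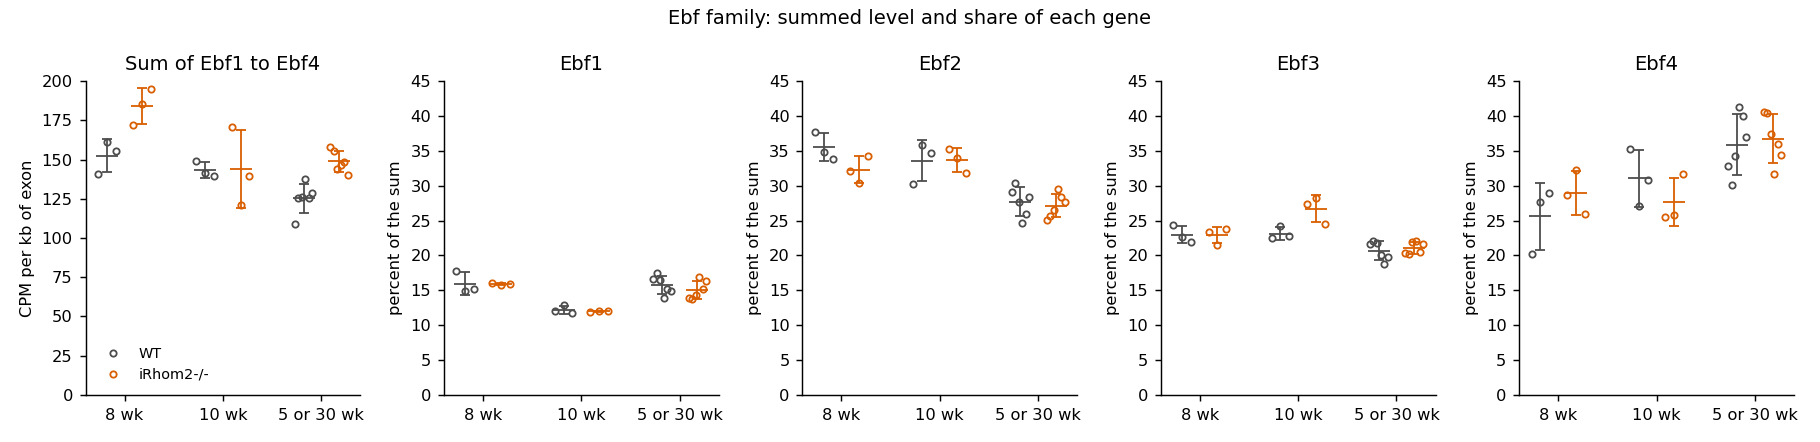
The first panel gives the sum of *Ebf1* to *Ebf4* in CPM per kb of exon in each mouse, and the others the percent of that sum that each gene holds, for *WT* (grey) and *iRhom2-/-* (orange) mice with the mean and SD of each group. The sums of the genotypes lie apart at 8 weeks and at 5 or 30 weeks, while the shares overlap in every panel except for *Ebf3* at 10 weeks.

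*Emx2* was at a log2 fold change of 0.24 over 24 mice (SE 0.093) and did not pass the threshold (adjusted p = 0.254). At 8 weeks *WT* mice were at 62.3, 62.9 and 66.1 CPM and *iRhom2-/-* mice at 57.7, 70.7 and 76.2 CPM, so the *iRhom2-/-* mice lay on both sides. At 10 weeks *WT* mice were at 45.9, 47.0 and 48.5 CPM and *iRhom2-/-* mice at 48.3, 50.6 and 68.9 CPM. Ranges at 5 or 30 weeks overlapped, from 38.8 to 57.9 CPM in *WT* and from 38.0 to 72.5 CPM in *iRhom2-/-* mice. *Emx2* shares 264 exonic bases with the antisense gene *Emx2os*, which averaged 9.98 CPM, so the same limit on strand holds for it as for *Ldb1*.

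The chromatin regulators did not pass the threshold in any comparison. *Kdm1a* was at a log2 fold change of 0.05 over 24 mice (SE 0.061, adjusted p = 0.812). Its values ran from 84.0 to 93.1 CPM in *WT* and from 92.5 to 101 CPM in *iRhom2-/-* mice at 8 weeks. At 10 weeks they ran from 84.7 to 90.4 CPM and from 90.9 to 95.4 CPM, without overlap. With CPM from library totals they overlapped at 10 weeks, with the lowest *iRhom2-/-* mouse at 70.8 CPM and the *WT* mice at 77.4 to 84.4 CPM. In TMM-scaled CPM the values of 5 or 30 weeks covered each other, from 80.5 to 111 CPM and from 78.1 to 112 CPM. *Lbr* was over 24 mice at a log2 fold change of -0.0023 (SE 0.047, adjusted p = 0.993), with group means from 24.98 to 37.1 CPM.

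*Bptf* was at 0.05 over 24 mice (SE 0.090, adjusted p = 0.885). At 8 weeks *WT* mice were at 127, 129 and 138 CPM and *iRhom2-/-* mice at 120, 125 and 141 CPM. At 10 weeks its log2 fold change was -0.27 (SE 0.17), with *WT* mice at 82.0, 87.5 and 112 CPM and *iRhom2-/-* mice at 65.8, 73.0 and 94.8 CPM. At 5 or 30 weeks it was 0.25 (SE 0.11, adjusted p = 0.352), with *WT* mice from 49.3 through a median of 71.6 to 80.1 CPM and *iRhom2-/-* mice from 68.0 through 83.3 to 89.8 CPM. The interaction of *Bptf* did not pass (adjusted p = 0.383).

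Counted by overlap in TMM-scaled CPM, 5 of the 10 regulators had every *iRhom2-/-* mouse above every *WT* mouse at 8 weeks, where 14.3% of all genes did. At 10 weeks these were 3 of 10 regulators against 6.64% of genes, and at 5 or 30 weeks 2 of 10 against 1.05%. Regulators whose *iRhom2-/-* mice all lay below the *WT* mice numbered 0 in each set. The share of all genes in that direction is not given here, so no result is read from this count. With CPM from library totals the counts were 6, 0 and 1 of the 10 regulators, against 16.6%, 4.32% and 1.51% of all genes. At 10 weeks 0.197% of 18764 genes passed the adjusted test and 0 of the 10 regulators did, with the smallest adjusted p at 0.765 for *Lhx2* and 0 of them at an unadjusted p under 0.05 by edgeR. The interaction of genotype and set passed for 0.0482% of 20763 genes and for 0 of the regulators, of which *Bptf* alone had an unadjusted p under 0.05 (0.046). DESeq2 also called 0 of the 10 at 10 weeks and in the interaction. By edgeR an unadjusted p under 0.05 was reached by 1461 of 18764 genes at 10 weeks and by 2640 of 20763 in the interaction.

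Levels of the regulators were compared per kb of exon over all 24 mice. Averaged over all groups, *Lhx2* was highest at 55.1 CPM per kb, then *Ebf4* at 47.1, *Ebf2* at 45.01, *Ebf3* at 32.9, *Ldb1* at 30.8, *Ebf1* at 21.5, *Emx2* at 18.5, *Kdm1a* at 17.9, *Lbr* at 6.90 and *Bptf* at 6.51 CPM per kb. *Ebf2* was above *Ebf3* in 24 of 24 mice, *Ldb1* above *Ebf1* in 23, and *Kdm1a* above *Lbr* in 24. The order was less fixed for the other neighbours. *Lhx2* was above *Ebf4* in 19 of 24 mice, *Ebf4* above *Ebf2* in 13, *Ebf3* above *Ldb1* in 15, *Ebf1* above *Emx2* in 21, *Emx2* above *Kdm1a* in 10 and *Lbr* above *Bptf* in 13. The order also differed between groups, with *Ebf2* (54.0 CPM per kb) above *Lhx2* (51.3) in *WT* mice of 8 weeks, and *Ebf4* (54.8) above *Lhx2* (52.1) in *iRhom2-/-* mice of 5 or 30 weeks. *Rhbdf2* itself was at 3.04 CPM per kb.

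Levels of the *WT* mice were also set side by side between the sets. *Bptf* averaged 131 CPM at 8 weeks and 68.9 CPM at 5 or 30 weeks, a ratio of 1.91, and *Ebf2* 374 and 240 CPM, a ratio of 1.56. *Lbr* averaged 37.1 CPM at 8 weeks and 25.04 CPM at 10 weeks. In these 3 cases the ranges of the *WT* mice did not overlap. Between their own highest and lowest sets they did not overlap either for *Ebf1*, *Emx2*, *Ebf3* and *Ldb1* (ratios of 1.38, 1.37, 1.35 and 1.20). Setting each gene's highest set against its lowest favours ranges that lie apart, and the share of all genes with ranges apart was not counted. No result is therefore read from these ranges. *Kdm1a*, *Ebf4* and *Lhx2* varied least, by 1.07, 1.15 and 1.16 times, and their ranges overlapped. These sets differ in age and submission together, so they are given as levels without a test.

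Summed levels of OSN markers are given beside the genotype differences. The summed CPM of 10 markers of mature OSNs ran from 9050 to 11341 in *WT* and from 13363 to 16879 in *iRhom2-/-* mice at 8 weeks, where *Lhx2* passed the test. At 10 weeks it ran from 13625 to 17473 in *WT* and from 12270 to 15833 in *iRhom2-/-* mice, and at 5 or 30 weeks, where *Ebf3* passed it, from 9477 to 14321 and from 9496 to 14514. The summed CPM of 8 immature OSN markers ran from 1122 to 1342 in *WT* and from 1298 to 1442 in *iRhom2-/-* mice at 8 weeks. It ran from 1277 to 1466 and from 1329 to 1620 at 10 weeks, and from 747 to 1297 and from 769 to 1494 at 5 or 30 weeks. The part of these mature and immature markers in the differences of the regulators was not tested.

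Over 24 mice 9 of 10 mature OSN markers were above 0 with a median log2 fold change of 0.12, and 8 of 8 immature OSN markers with a median of 0.14. At 8 weeks the median of the mature markers was 0.51, with 4 of 10 called higher by edgeR and 9 called by DESeq2. At 10 weeks it was -0.17 with 0 of 10 above 0. The median of the immature markers was 0.18 at 8 weeks with 6 of 8 above 0, and 0.19 at 10 weeks with 7 of 8 above 0. Of the immature markers *Stmn4*, a stathmin of growing neurons, rose by 0.49 (SE 0.090, adjusted p = 0.00512), and *Gng13*, of the mature markers, was at -0.33 (adjusted p = 0.285). The 6 B cell markers were all below 0 over 24 mice, with a median of -0.72 and *Ighm* at -0.68 (adjusted p = 0.120 by edgeR), while *Ebf1*, a gene of B cells too, was at 0.15. DESeq2 called 4 of the 6 B cell markers. At 10 weeks 4 of the 6 were above 0 (median 0.13). The 7 macrophage markers were below 0 over 24 mice too, and 6 of 7 were above 0 at 10 weeks (median 0.13). Their median over 24 mice was -0.29, and *Aif1* was lower by 0.64 (SE 0.17, adjusted p = 0.0700). Leaving out 1 mouse at a time, *Aif1* missed the threshold in 9 of 24 fits.

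Over 24 mice the other marker lists had 0 genes past the threshold by edgeR and by DESeq2, with an unadjusted p under 0.05 for 2 horizontal basal cell markers, 1 of fibroblasts and adipocytes and 1 of glia. Their medians were 0.047 for 8 markers of dividing and intermediate precursors (smallest p for *Nhlh1*), 0.025 for 5 of horizontal basal cells (*Icam1*), and 0.034 for 6 of sustentacular cells (*Muc2*). They were 0.021 for 6 of ciliated respiratory cells (*Cfap126*), 0.0996 for 6 of neutrophils (*Ltf*) and 0.055 for 4 of erythrocytes (*Alas2*). The median was -0.014 for 5 measured markers of fibroblasts and adipocytes (*Adipoq*) and -0.083 for 6 of glia (*Fabp7*). All these lists changed the sign of their median between 8 and 10 weeks. Glia markers had a median of 0.37 at 8 weeks, where 6 of 6 were above 0 and 1 was called higher by edgeR. At 10 weeks it was -0.52, and 6 of 6 were below 0. The medians at 8 and then 10 weeks were -0.40 and 1.15 for erythrocytes, -0.42 and 0.46 for ciliated cells, and -0.27 and 0.19 for horizontal basal cells. They were -0.18 and 0.25 for precursors, -0.23 and 0.32 for fibroblasts and adipocytes, -0.057 and 0.89 for neutrophils, and 0.23 and -0.17 for sustentacular cells. At 8 weeks DESeq2 called 2 glia, 2 horizontal basal cell and 1 precursor marker, and at 10 weeks 1 glia, 2 horizontal basal cell, 2 fibroblast or adipocyte and 1 neutrophil marker. At 5 or 30 weeks it called 2 glia markers.

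The genes that work with the regulators were followed as lists of 6 to 12 genes, over 24 mice unless a set is named. Of 9 measured partners of LIM and LDB proteins 0 passed over 24 mice by edgeR or DESeq2, and 0 had an unadjusted p under 0.05, with a median of 0.044, and the smallest p was that of *Ssbp3*, a stabilizer of LDB proteins, at 0.08 (adjusted p = 0.430). Of 6 relatives and partners of the *Ebf* and *Emx* factors 0 passed by either tool and 1 had an unadjusted p under 0.05, with a median of 0.11. *Nfix*, a nuclear factor I gene, had the smallest p there at 0.20 (adjusted p = 0.261).

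Of 10 genes of the CoREST complex, in which *Kdm1a* acts, *Hdac1* fell by 0.60 on the log2 scale (SE 0.12, adjusted p = 0.00826). The others did not pass, and the median was 0.047. *Hdac1* values were 69.3 ± 13.03 and 70.4 ± 11.7 CPM (SD, n = 3 each) at 8 weeks for *WT* and *iRhom2-/-*, 87.6 ± 4.29 and 54.2 ± 15.8 CPM (SD, n = 3 each) at 10 weeks, and 85.2 ± 4.39 and 46.6 ± 8.54 CPM (SD, n = 6 each) at 5 or 30 weeks. The processed pseudogene *Hdac1-ps*, looked at after the values of *Hdac1* were seen, moved the other way. It was at 4.54, 4.61 and 1.79 CPM on average in the *WT* groups of 8, 10 and 5 or 30 weeks, and at 8.74, 23.6 and 24.9 CPM in the *iRhom2-/-* groups.

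*Hdac1-ps* differed between mice of 1 group at 8 weeks. *WT* mouse 3 was at 10.2 CPM against 1.54 and 1.87 CPM in the other *WT* mice, and *iRhom2-/-* mouse 3 was at 1.56 CPM against 12.2 and 12.5 CPM. These are the *WT* mouse with the lowest *Hdac1* value of its group, 54.4 CPM, and the *iRhom2-/-* mouse with the highest, 83.9 CPM. As reads of near-identical copies can be divided between them, the value of *Hdac1* alone is uncertain. With the counts of both summed into 1 feature the log2 fold change over 24 mice was -0.18 (SE 0.055, adjusted p = 0.133), which did not pass.

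Of 8 NURF and ISWI remodeler genes other than *Bptf*, *Cecr2*, a bromodomain partner of the ISWI ATPases, rose by 0.26 (SE 0.057, adjusted p = 0.0220). It was at 70.6 ± 5.90 and 83.1 ± 2.73 CPM (SD, n = 3 each) at 8 weeks and at 47.3 ± 4.05 and 58.7 ± 4.54 CPM (SD, n = 6 each) at 5 or 30 weeks. At 10 weeks it was at 53.2 ± 5.44 and 59.4 ± 11.5 CPM (SD, n = 3 each), and the groups overlapped. The list's median was 0.0053 and the other 7 genes did not pass. Of 12 genes of the heterochromatin that covers silent *OR* clusters, *Suv39h2*, an H3K9 methyltransferase, was lower by 0.39 (SE 0.092, adjusted p = 0.0342), at group means of 3.96 to 6.82 CPM. The other 11 did not pass and the median was 0.030. *Cecr2* and *Suv39h2* did not pass in the mice of 8 and 10 weeks alone (adjusted p of 0.401 and 0.261).

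Of 11 genes of lamins, *Ctcf* and cohesin, over 24 mice, 0 passed by either tool or at an unadjusted p under 0.05, with a median of 0.035 and the smallest p for *Smc1a* at 0.10 (adjusted p = 0.534). At 8 weeks 3 of the 11 had an unadjusted p under 0.05, and DESeq2 called 3. Of 6 genes of the feedback by which an expressed receptor keeps its choice, over 24 mice, 0 passed by either tool and 1 had an unadjusted p under 0.05, with a median of 0.076. There *Rtp1*, which carries receptors to the cell surface, had the smallest p at 0.14 (adjusted p = 0.246). At 8 weeks the median of the 6 feedback genes was 0.35, and 6 of 6 had an unadjusted p under 0.05. There edgeR called 0 of them after adjustment, and DESeq2 called 5. Of all genes at 8 weeks, 3827 of 19335 had an unadjusted p under 0.05 by edgeR, and DESeq2 called 2084 of 27698.

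**Figure D4:**
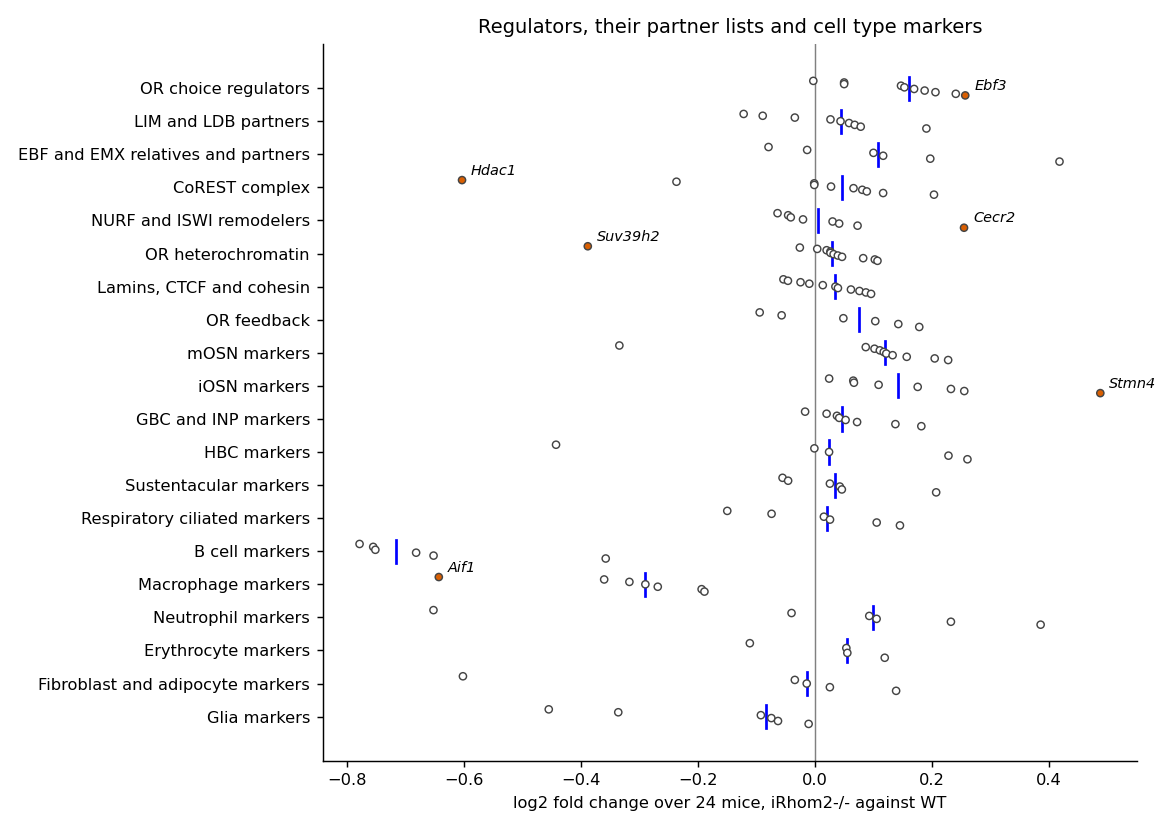
Log2 fold change over 24 mice (horizontal axis) of every measured gene of the regulators, their partner lists and the cell type markers, with the median of each list as a blue line and genes with an adjusted p under 0.1 in orange and named. The median of the regulators lies at 0.16, and those of B cell and macrophage markers at -0.72 and -0.29.

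The share of counts on *OR* genes was taken from library totals, without TMM. In bulk OE this share cannot tell the number of OSNs from *OR* RNA per cell. *iRhom2-/-* mouse 2 of 10 weeks, with 13.6% of its counts on *Bpifb9b*, was at 0.137%. *OR* counts were 0.161% ± 0.0299 (SD, n = 3) of the total in *WT* and 0.204% ± 0.00422 (SD, n = 3) in *iRhom2-/-* mice at 8 weeks, 0.173% ± 0.0145 (SD, n = 3) against 0.160% ± 0.0319 (SD, n = 3) at 10 weeks, and 0.156% ± 0.0189 (SD, n = 6) against 0.172% ± 0.0119 (SD, n = 6) at 5 or 30 weeks. Over the sets the difference was 0.0151 percentage points (exact permutation p = 0.179, adjusted p = 0.365). The number of *OR* genes with a count ran from 969 to 1060 of 1175 and gave an exact permutation p of 0.493.

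The regulators were compared by how they varied between mice of the same group. Pearson correlations of log2 CPM were taken over the 24 libraries after the 6 group means were removed. They are a description only, as the points share their library and its composition, and the residuals of 5 or 30 weeks still hold the age. *Lhx2* and *Emx2* varied together (r = 0.85, and 0.81 over the 12 mice of 8 and 10 weeks). So did *Ebf2* and *Ebf3* (0.84 and 0.94), *Ebf1* and *Ebf2* (0.82 and 0.86) and *Ebf1* and *Ebf3* (0.75 and 0.86).

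Within the *Ebf* family the lowest r of a pair was -0.016. Over all 45 pairs the median r was 0.092, and 9 pairs were above 0.5. *Kdm1a* and *Bptf* were at -0.68 over 24 mice but at -0.12 over 12, and *Kdm1a* and *Emx2* at 0.71 and -0.26. *Kdm1a* followed *Gap43*, a gene of growing axons in immature OSNs, at 0.91. *Lhx2* and *Emx2* followed *Gap43* too, at 0.75 and 0.72, while *Bptf* was at -0.70. The remaining regulators ran from -0.51 (*Ebf4*) to 0.45 (*Ldb1*) with *Gap43*. *Ebf4* followed *Omp*, the marker of mature OSNs, at 0.73. These marker correlations were taken over 24 mice only, where the residuals still hold age, and were not repeated over the 12.

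**Figure D5:**
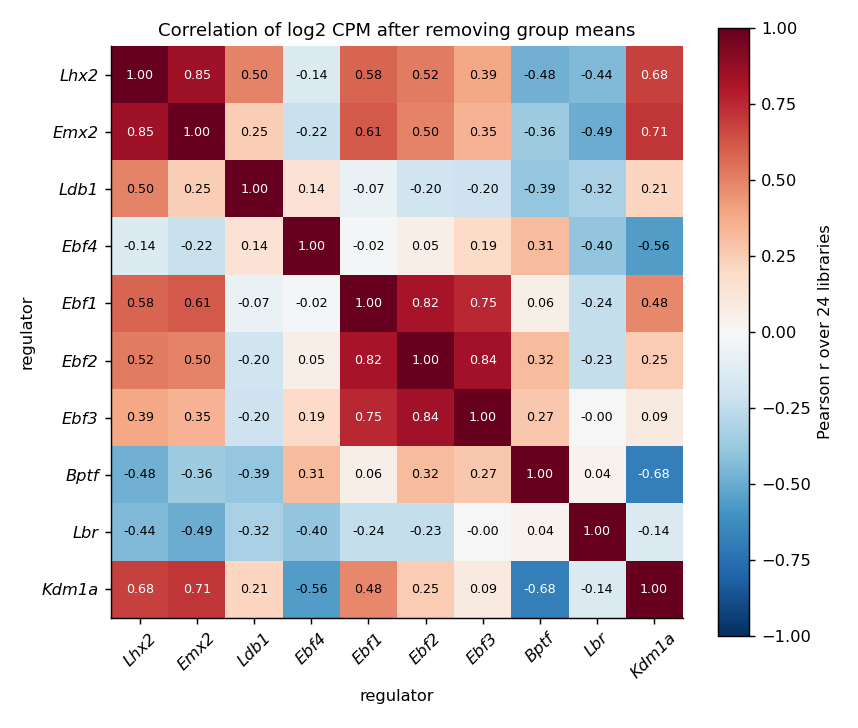
Pearson r between the regulators, from log2 CPM of 24 libraries after the group means were removed, as numbers and colours from -1 (blue) to 1 (red). *Ebf1*, *Ebf2* and *Ebf3* form a block at 0.75 to 0.84, and *Lhx2* and *Emx2* are at 0.85.

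The genes most like each regulator by the same measure, among 16319 genes with a mean of at least 1 CPM, were mostly not regulators. For *Ebf3* they were *Ube3b*, *Ebf2* and *Wdr37* (r of 0.85, 0.84 and 0.79), and for *Ebf2* they were *Top2b*, *Wdr37* and *Adgrl3* (0.88, 0.87 and 0.87). For *Ebf1* they were *Tmem178b*, *Galnt17* and *Asb7* (0.89, 0.85 and 0.83), and for *Ebf4* they were *Ttll3*, *Tmem145* and *Dennd6b* (0.96, 0.94 and 0.92). *Lhx2* was nearest to *Brsk1*, *Bdh1* and *Galnt15* (0.90, 0.90 and 0.86, but 0.86, 0.53 and 0.76 over the 12 mice of 8 and 10 weeks), *Emx2* to *Fezf1*, *Ccdc112* and *Sgpp2* (0.91, 0.88 and 0.86), and *Ldb1* to *Pwwp3a*, *Maz* and *Zfp428* (0.95, 0.93 and 0.91).

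*Bptf* was nearest to *Wnk1* and *Setbp1* (0.98 and 0.95), and *Lbr* to *Oat*, *Mob3a* and *Tcp11l2* (0.79, 0.74 and 0.73). *Kdm1a* was nearest to *Tdg*, *Tubb5* and *Racgap1* at 0.96 each. Over the mice of 8 and 10 weeks alone these 3 were at 0.78, 0.71 and 0.77.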

How the data were processed

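Poly A RNA of the whole OE was sequenced from 24 mice as paired reads from a directional library. The authors aligned reads to GRCm38 with STAR and deposited RSEM expected counts per gene, with the group comparisons they made in EdgeR beside them. Those comparisons (log2 fold change, logCPM, LR, p and FDR) were not used here. Of the sample columns, 12 give the genotype only. Rows without a gene symbol (3926, with 1.11% of the counts) carry a gene ID and were kept.

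Counts were rounded and tested with edgeR 4.0.16 in R 4.3.3 (filterByExpr, TMM, quasi-likelihood), with the set (8, 10, or 5 or 30 weeks) as a term, over all genes, at a Benjamini-Hochberg adjusted p under 0.1. The SE is the log2 fold change over the square root of F. Library totals were 25333822 to 48660394, so a floor of 3 counts is at most 0.118 CPM. Single measures were tested by exact permutation within sets. The most alike genes were taken at a mean of at least 1 CPM after a log2 transform of CPM (prior count 2). The procedure was tested on simulated data. Alternatives were DESeq2 1.42.0, other scalings and filters, a replicate block, other terms and leaving out each mouse. Scaling by library totals and summing *Hdac1* with its copy were chosen after seeing the data.

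The named genes were the 10 regulators and, in each other list, the genes past the threshold over 24 mice or else the 1 with the smallest p. Among the most alike genes, 1 is not reported here. The regulators and lists were chosen with earlier results of these data known. No 2 libraries of a group were duplicates (in 42 pairs, chi-square was at least 12.8 times its degrees of freedom).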

Additional observations from a re-analysis of the deposited data

Results flagged for a closer look

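In 34 groups of 6 mice, 2 values lay farther from the others than Dixon's 95% critical value of 0.625 allows, where chance gives about 5% of groups. *Lhx2* in *WT* mouse c of 5 or 30 weeks was at 267 CPM, against 196 to 215 CPM in the other 5 *WT* mice (gap over range 0.729). *Lbr* in *iRhom2-/-* mouse c of 5 or 30 weeks was at 42.0 CPM, against 33.4 to 35.4 CPM in the others (0.771).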

How the results depend on the processing

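Of 780 alternative values of the regulators, 714 kept their direction and side of the threshold, 25 lost and 10 gained a call, and 31 changed sign. The cause of these changes was not tested. Over 24 mice, where 1 regulator was called, 0 were in the mice of 8 and 10 weeks alone, with the replicate block in those mice, and without the set as a term, and 1 to 3 without 1 mouse. At 8 weeks, where 1 was called, 0 were at an adjusted p under 0.05, scaled by library totals or in the fit of all 6 groups, 5 with DESeq2, and 0 to 2 without 1 mouse. At 5 or 30 weeks, where 1 was called, 0 were at an adjusted p under 0.05, without a filter on low counts or in the fit of all 6 groups, 2 with DESeq2, and 0 to 1 without 1 mouse. Of all genes DESeq2 called 2084 of 27698 at 8 weeks and 791 of 29431 at 5 or 30 weeks. The adjusted p of *Ebf3* over 24 mice ran from 8.83e-05 to 0.508 over the alternatives, and that of *Lhx2* at 8 weeks from 0.00179 to 0.280. At 5 or 30 weeks *Ebf3* kept its call in 1 of 12 fits without 1 mouse, that without *WT* mouse b.

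Signs that changed were of values that did not pass. Over 24 mice *Lbr* was at 0.00096 without a filter and 0.015 by library totals, *Bptf* at -0.14 in the mice of 8 and 10 weeks alone and -0.15 with the replicate block, *Ltf* at 0.27 with that block, and *Alas2* at -0.034 with sex as a term. By library totals *Bptf* was at 0.012 at 8 weeks and *Kdm1a* at 0.018 at 5 or 30 weeks. With the replicate block *Ebf2* was at -0.0095 at 10 weeks. Without 1 mouse, *Lbr* ran from -0.030 to 0.023 over 24 mice, -0.19 to 0.0022 at 8 weeks, -0.077 to 0.025 at 10 weeks and -0.011 to 0.060 at 5 or 30 weeks. *Bptf* ran from -0.11 to 0.0028 at 8 weeks, *Ebf1* from -0.18 to 0.070 and *Ebf2* from -0.18 to 0.11 at 10 weeks, *Kdm1a* from -0.075 to 0.042 at 5 or 30 weeks, *Alas2* from -0.24 to 0.20 over 24 mice, and the *Ebf4* share from -0.632 to 0.972 percentage points.

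Of all genes, 428 were called over 24 mice, 815 with DESeq2, 247 at an adjusted p under 0.05, 260 in males alone, 114 in the mice of 8 and 10 weeks, 96 without the set as a term, and 297 to 720 without 1 mouse (720 without *iRhom2-/-* mouse 2 of 10 weeks). At 8 weeks 962 were called, 2084 with DESeq2, 270 at 0.05, 393 by library totals, 404 in the fit of all 6 groups and 68 to 1300 without 1 mouse. At 10 weeks 37 were called, 280 with DESeq2, 58 without a filter and 13 to 105 without 1 mouse. At 5 or 30 weeks 198 were called (120 higher), 791 with DESeq2, 51 at 0.05, 119 without a filter, 344 by library totals (275 higher) and 52 to 241 without 1 mouse. The interaction called 10, 486 with DESeq2, 3 at 0.05 and 0 to 204 without 1 mouse.

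Mice of 1 age share replicate numbers in the labels. Deviations of same-numbered mice correlated at 0.129, 0.046 and 0.0032 at 8 weeks and 0.0085, 0.236 and 0.131 at 10 weeks. Those of mice with different numbers ran from -0.151 to 0.120 at 8 weeks and from -0.250 to 0.151 at 10 weeks. With 3 mice per group this cannot settle whether the numbers pair the mice. With the replicate block 41 genes were called over the 12 mice of 8 and 10 weeks, 1399 at 8 weeks with 1 regulator among them, and 43 at 10 weeks with 0. Sets of 3 against 3 limit each single-age value, and the unresolved ages widen the spread at 5 or 30 weeks.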

Other observations

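Some regulators split the 12 libraries of 5 or 30 weeks by column in both genotypes. *Kdm1a* was at 100, 111 and 106 CPM in *WT* mice a to c and at 80.5, 81.2 and 85.5 CPM in d to f, and at 88.2, 81.6 and 78.1 CPM in *iRhom2-/-* mice a to c and 112, 103 and 97.3 CPM in d to f. *Bptf* was at 64.4, 61.4 and 49.3 CPM and then 79.7, 80.1 and 78.9 CPM in *WT* mice, and at 89.7, 86.8 and 89.8 CPM and then 68.0, 77.4 and 79.8 CPM in *iRhom2-/-* mice. For both genes, *WT* mice a to c and *iRhom2-/-* mice d to f lay on the same side of the other mice of their genotype. The labels do not give the age of these columns, so no age is given to either side and no comparison is made.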
